A study of Mus musculus with 12 samples.

Results

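Described here are 10 glucocorticoid-responsive genes, that is, genes whose transcription is known to follow the adrenal hormone corticosterone, and among them the gene of the receptor that carries its signal. They are Fkbp5, Sgk1, Tsc22d3, Zbtb16, Cdkn1a, Plin4, Sult1a1, Pdk4, Hif3a and the glucocorticoid receptor gene Nr3c1. A probe was taken for a gene where its RefSeq accession on the array belonged to that gene, without regard to its signal. All 10 genes were found among the 20886 genes that the arrays named, on 15 probes, and each had at least 1 probe well above background on all 12 arrays. Corticosterone crosses into the brain and binds the glucocorticoid receptor, which waits in the cytoplasm on heat shock chaperones, then enters the nucleus and binds DNA at a palindrome called the glucocorticoid response element. Handling, injection, anaesthesia, fasting and the time of day all change circulating corticosterone, and the hippocampus is rich in both corticosteroid receptors. Corticosterone itself was not among the measurements analysed here.

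Gene expression was measured on 12 arrays, 1 for each of 12 mouse models of Alzheimer's disease or ageing, with the RNA of 3 animals pooled on each. Prefrontal cortex came from untreated C57BL/6 mice aged 1.5, 4, 17 and 22 months. Hippocampus came from 3 transgenic lines with the strain C57BL/6: an NCSTN transgenic model carrying mutated human nicastrin, at 10 months, a MAPT overexpression model carrying wild-type human tau, at 12 months, and 5xFAD mice, a transgenic line with mutations of familial Alzheimer's disease, at 6 months. Hippocampus also came from ICR mice aged 7 weeks at purchase that had received the amyloid peptide Aβ at 5 or 10 µM or the glucosamine derivative streptozotocin at 2.5 or 3 mg/kg into the cerebral ventricle 14 days before, or scopolamine, a blocker of muscarinic acetylcholine receptors, at 1 mg/kg into the peritoneum 30 minutes before. All of the mice were housed alone, fasted overnight and anaesthetised with isoflurane. No untreated ICR array and no non-transgenic C57BL/6 hippocampal array was used here. The promoters driving the transgenes are not given in the sources used here. The 30-minute and 14-day groups differed in drug, route, surgery and delay at once. With 1 array per model no difference could be tested, so no p-value is given, and a pool hides the spread between animals.

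Values are the scanner's processed signal on the log2 scale after quantile normalization over the 12 arrays, and a difference of 1 on that scale is 2-fold. Each of the 12 arrays had 0 saturated spots and between 110 and 234 spots marked as outliers, with 63.5% to 75.8% of probes well above background. Probes printed at 5 or more spots had a median SD between spots of 0.045 to 0.059 on the log2 scale, depending on the array, which is a technical error within an array and not a spread between mice. The sex markers went against the methods, which call the mice of all 3 transgenic lines male: Xist, expressed from the inactive X chromosome, was 9.19 on the NCSTN, 9.44 on the MAPT and 9.59 on the 5xFAD array and not well above background on the other 9. The Y-linked genes Ddx3y and Eif2s3y were not well above background on those 3 arrays and lay between 9.21 and 10.90 on the other 9, so sex and transgenic origin cannot be told apart. Summed levels of region markers went with the tissue labels. Those of 8 cortex markers were 13.55 to 13.90 on the cortical arrays and 12.28 to 13.28 on the hippocampal ones. Those of 8 hippocampus markers were 13.07 to 13.96 and 14.54 to 15.36. Lamp5 was higher on each cortical array than on any hippocampal one, and Prox1 was the reverse. Not every marker did so: Nr4a2, on the cortex list, was 9.24 to 10.39 in cortex and 11.09 to 12.34 in hippocampus. The transthyretin gene Ttr and other choroid plexus markers stood apart on several arrays, and their values are given beside the results they touch.

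Of the 8 genes that could be searched, Sgk1 was the one with a complete glucocorticoid response element next to an annotated start. Zbtb16 and Nr3c1 had no promoter window and were not searched. RefSeq promoter windows from 250 bases before to 50 bases after a start were available for 8 of the 10 genes, in 16 windows, and the palindrome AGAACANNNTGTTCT was searched on both strands, where N is any base. It occurred in 3 of all 32851 windows (0.00913%). The looser form GNACANNNTGTNC, which lies within it, occurred in 156 windows (0.475%), and among the 8 genes searched again in the same Sgk1 window alone. A match in this window is a description of letters and not a measured binding site, and response elements of the other genes may lie outside such short windows. The 250 bases before that start, 1 of 6 annotated for Sgk1, lie at chr10:21993640-21993889 on the plus strand of GRCm38.p6, and the response element is in capitals, ending 174 bases before the start.

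Sgk1: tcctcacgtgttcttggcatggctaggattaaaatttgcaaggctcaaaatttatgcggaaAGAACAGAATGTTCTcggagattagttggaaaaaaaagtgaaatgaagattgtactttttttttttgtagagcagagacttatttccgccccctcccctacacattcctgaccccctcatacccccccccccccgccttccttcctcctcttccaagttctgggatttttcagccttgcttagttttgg

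The probe for Sgk1 was designed to the accession NM_001161845, a transcript variant of the gene, and it does not tell which of the 6 starts was in use. Of the 10 genes, 4 had more than 1 probe. Both Sult1a1 probes were well above background throughout and gave like values. For Cdkn1a the probe for NM_007669 was well above background on all 12 arrays and the probe for NM_001111099 on 1, and for Hif3a 1 of 3 probes was well above background on all 12. Levels of Cdkn1a and Hif3a are therefore given from their bright probes, while counts of genes past a threshold used the mean of all probes of a gene. Both Nr3c1 probes were well above background on all 12 arrays but differed from each other, and both are given.

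**Figure D1:**
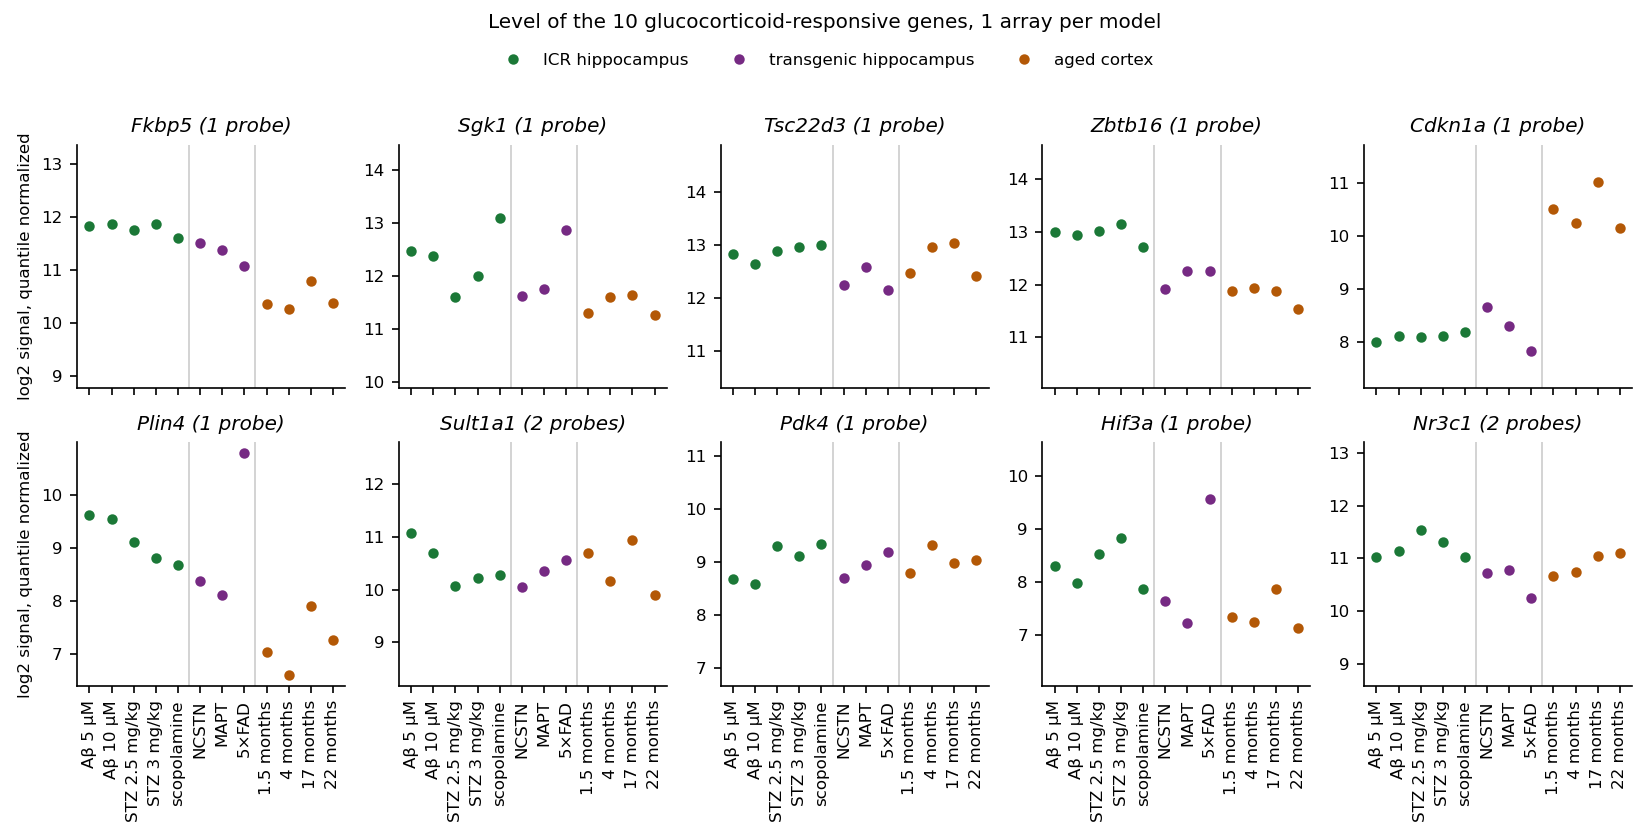
Level of each gene on each of the 12 arrays, as log2 signal after quantile normalization, from the probes that were well above background on all arrays (their number is in each title). Each point is 1 array of 3 pooled animals, every panel spans the same number of log2 units, and colour marks ICR hippocampus, transgenic hippocampus and aged cortex. Fkbp5 and Plin4 lay higher and Cdkn1a lower in hippocampus than in cortex. Sgk1, Plin4 and Hif3a were higher on the 5xFAD array than on the other transgenic arrays.

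Fkbp5, a chaperone that lowers the hormone affinity of the glucocorticoid receptor and is itself strongly induced by it, separated the regions. Its signal was 10.36, 10.27, 10.79 and 10.38 in cortex at 1.5, 4, 17 and 22 months, a mean of 10.45 ± 0.23 (SD over 4 arrays of different ages). In hippocampus it ranged from 11.08 to 11.87, with a mean of 11.62 ± 0.28 (SD over 8 arrays of different models), so that the regions did not overlap. Plin4, which coats lipid droplets, went the same way: it was 6.60 to 7.91 in cortex and 8.10 to 10.79 in hippocampus. Cdkn1a, which encodes the cell cycle inhibitor p21, went the other way. Its bright probe was 10.52, 10.24, 11.02 and 10.15 at the 4 ages of cortex and between 7.83 and 8.65 on the 8 hippocampal arrays. Ranges that did not overlap between cortex and hippocampus were common, in 21.0% of 14020 genes measured on all 12 arrays, against these 3 of the 10. The other 7 genes overlapped, Zbtb16 by little: this zinc finger transcription factor was 11.55 to 11.94 in cortex, 11.91 to 12.25 in transgenic hippocampus and 12.70 to 13.14 in ICR hippocampus. Region, strain, age, treatment and sex all differ between these arrays and cannot be told apart.

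Among the ICR arrays, the question was whether the genes differed between mice killed 30 minutes after scopolamine and mice killed 14 days after surgery. Sgk1, a serum- and glucocorticoid-regulated kinase that acts on ion channels and transporters, differed by the most. It was 12.47 and 12.39 after Aβ at 5 and 10 µM, 11.60 and 12.00 after streptozotocin at 2.5 and 3 mg/kg, and 13.09 after scopolamine. The scopolamine array was thus the highest of the 5, and 0.98 above the mean of the 14-day arrays (1.98-fold), a size larger than that of 98.5% of 14264 measured genes. None of the 10 genes reached 2-fold in either direction, where 1.47% of all genes did. Without the Aβ 5 µM array the Sgk1 difference was 1.10 and without the Aβ 10 µM array it was 1.07, both past 2-fold, and without the streptozotocin 2.5 mg/kg array it was 0.81.

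The other glucocorticoid targets were divided: Pdk4 and, by little, Tsc22d3 went with Sgk1, while Fkbp5, Zbtb16, Plin4 and Hif3a went the other way. Fkbp5 was 11.84, 11.87, 11.76 and 11.87 on the 14-day arrays and 11.60 after scopolamine, the lowest of the 5, a log2 difference of -0.23. Zbtb16 was likewise lowest after scopolamine, at 12.70 against 12.95 to 13.14. Tsc22d3, which encodes the anti-inflammatory leucine zipper protein GILZ, was 12.65 to 12.96 on the 14-day arrays and 13.00 after scopolamine. Its log2 difference was 0.16, less than the spread over all genes. Pdk4, the kinase that shuts down pyruvate dehydrogenase in fasting, was 8.68, 8.59, 9.30 and 9.11 on the 14-day arrays and 9.34 after scopolamine, barely above the streptozotocin 2.5 mg/kg array. Plin4 was 9.62, 9.55, 9.10 and 8.81 on the 14-day arrays and 8.68 after scopolamine, a log2 difference of -0.59. The bright probe of Hif3a, a relative of the hypoxia-inducible factors, was 8.30, 7.98, 8.52 and 8.82 against 7.85. In all, the scopolamine array lay above all 4 others for 3 genes (Sgk1, Tsc22d3 and Pdk4), against 19.4% of all genes, and below all 4 for 5 genes (Fkbp5, Zbtb16, Plin4, Hif3a and Nr3c1), against 17.7%. It lay outside their range in either direction for 8 of the 10, against 37.1% of all genes. Nr3c1 is in these counts by the mean of its probes alone, since neither of its probes lay below all 4. The median difference of the 10 genes was -0.23, beside -0.0029 over all measured genes, whose spread (a scaled median absolute deviation) was 0.17.

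Nr3c1 differed little between these arrays on its brighter probe, which read 13.18 and 13.02 after Aβ, 13.28 and 13.12 after streptozotocin and 13.11 after scopolamine. The dimmer probe read 8.89, 9.25, 9.78, 9.51 and 8.93 in the same order, so that on each probe the scopolamine value lay above 1 of the 4 others. The bright Cdkn1a probe differed by 0.11. Sult1a1, a phenol sulfotransferase, was 10.28 after scopolamine, within the range of the 14-day arrays.

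**Figure D2:**
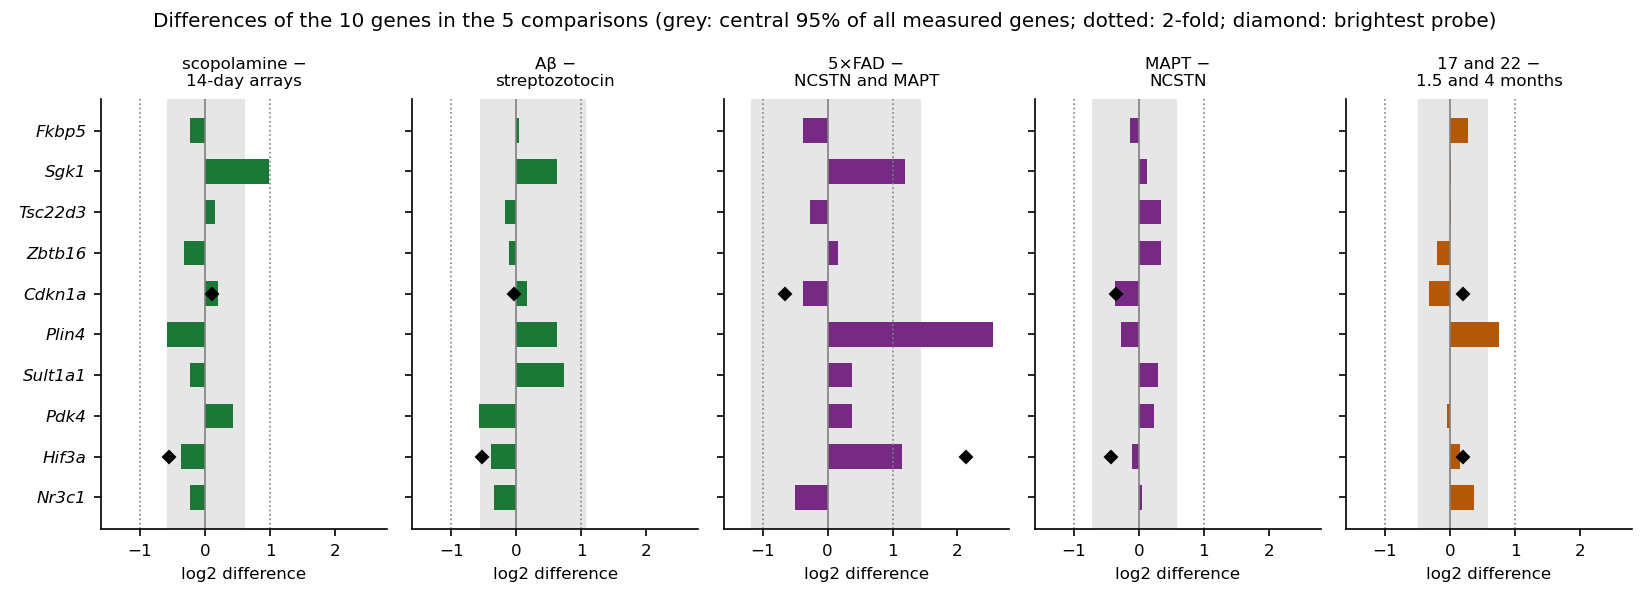
Log2 difference of each gene (bars, mean of all its probes) in the 5 comparisons, with the central 95% of all measured genes in grey, dotted lines at 2-fold and a black diamond for the brightest probe of Cdkn1a and Hif3a. Values outside the grey band were Sgk1 at 0.98 and Plin4 at -0.59 between scopolamine and the 14-day arrays, Pdk4 at -0.57 between Aβ and streptozotocin, Plin4 at 2.55 and the brightest Hif3a probe at 2.13 between 5xFAD and the other transgenic lines, and Plin4 at 0.76 between old and young cortex.

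Markers of the choroid plexus, the tissue that makes cerebrospinal fluid beside the hippocampus, differed between the ICR pools. The summed level of 10 choroid plexus markers was 17.55 and 17.63 on the Aβ arrays and 17.57 after scopolamine, but 11.78 and 12.48 on the streptozotocin arrays, where Ttr was 11.27 and 12.06 against 17.33 to 17.41. All 8 choroid plexus markers that were measured on all 5 arrays were over 2-fold higher on the scopolamine array than on the mean of the 14-day arrays. In the same comparison 8 of 10 meninges and fibroblast markers were lower after scopolamine, 4 of them past 2-fold, with a median of -0.66, and 9 of 10 endothelial markers were lower, with a median of -0.25. All 10 oligodendrocyte markers were higher, with a median of 0.38. Against the Aβ arrays alone, the scopolamine array had more Sgk1, by 0.67 on the log2 scale (1.59-fold, larger in size than 95.1% of 14626 genes), and more Pdk4, by 0.71 (1.63-fold). Plin4 was there 1.87-fold and Sult1a1 1.52-fold lower. That comparison was added after these values were seen, and the summed meninges and fibroblast level was 15.77 and 15.30 on the Aβ arrays against 14.20 after scopolamine. Immediate early genes, the quick transcription response of neurons, also moved with this comparison: 11 of 12 measured were higher after scopolamine than on the mean of the 14-day arrays, with a median of 0.33, and Npas4 was 2.22-fold higher. Their summed level was 14.86 and 14.91 after Aβ, 15.81 and 15.11 after streptozotocin and 15.41 after scopolamine, so that it was highest on the streptozotocin 2.5 mg/kg array, where Sgk1 was lowest. The part of these tissues and of the immediate early genes in the Sgk1, Plin4 and Pdk4 values was not tested.

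**Figure D3:**
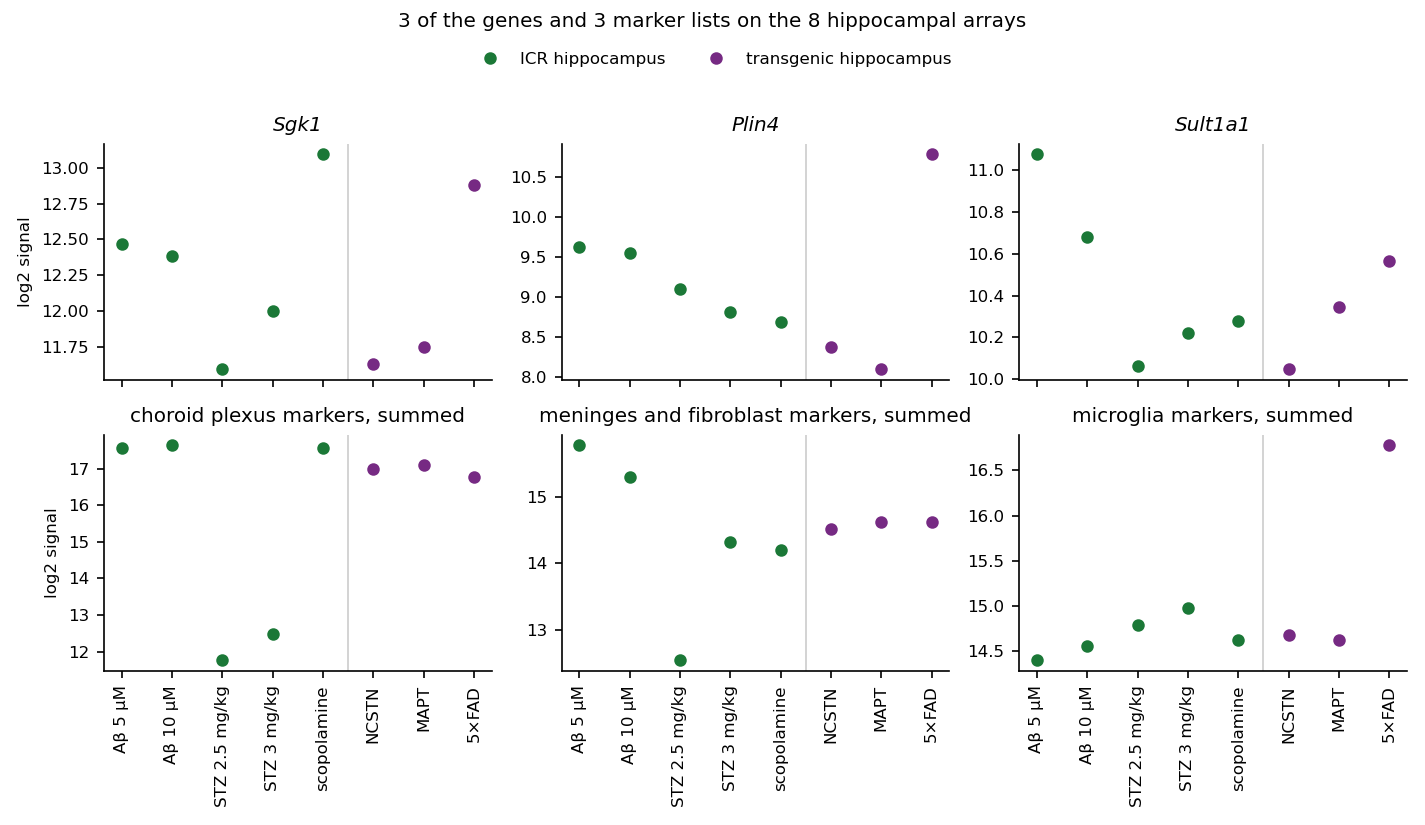
Sgk1, Plin4 and Sult1a1 (top) and the summed levels of choroid plexus, meninges and fibroblast, and microglia markers (bottom) on the 8 hippocampal arrays, as log2 signal on axes that differ between panels. Each point is 1 array, and the choroid plexus sum was 11.78 and 12.48 on the 2 streptozotocin arrays, while the microglia sum reached 16.78 on the 5xFAD array.

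Within the 14-day surgery arrays the comparison was Aβ against streptozotocin, with both doses of each taken as 1 side. Sult1a1, Sgk1 and Plin4 were higher after Aβ and Pdk4 was lower. Sult1a1 was 11.08 and 10.68 after Aβ and 10.06 and 10.22 after streptozotocin, a difference of 0.74 (1.67-fold), and its probes gave 0.73 and 0.75. Sgk1 and Plin4 each differed by 0.63 (1.55-fold), with no overlap of the 2 sides. Pdk4 was 8.68 and 8.59 after Aβ against 9.30 and 9.11, a log2 difference of -0.57. Fkbp5, Tsc22d3 and Zbtb16 differed by 0.04, -0.18 and -0.11, each less than the spread over all genes. None of the 10 reached 2-fold, where 3.06% of 14275 measured genes did. Both Aβ arrays lay above both streptozotocin arrays for 4 genes (Sgk1, Cdkn1a, Plin4 and Sult1a1), against 20.3% of all genes, but the bright Cdkn1a probe had a log2 difference of -0.042 and overlapped. Both lay below for 5 genes (Tsc22d3, Zbtb16, Pdk4, Hif3a and Nr3c1), against 30.1%, but the brighter Nr3c1 probe overlapped. The median of the 10 was -0.036, and that of all genes was -0.038 with a spread of 0.19.

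The choroid plexus and the coverings of the brain moved with this comparison. All 8 measured choroid plexus markers were over 2-fold higher on the Aβ arrays, with a median of 4.80 on the log2 scale, as were all 10 meninges and fibroblast markers, with a median of 2.25. The summed meninges and fibroblast level was 15.77 and 15.30 on the Aβ arrays, 12.55 and 14.32 on the streptozotocin arrays and 14.20 after scopolamine. All 10 endothelial markers were also higher after Aβ, with a median of 0.36 and none past 2-fold. Other lists went the other way. Only 1 of 12 measured immediate early genes was higher after Aβ, with a median of -0.34, and Npas4 was 2.04-fold lower. None of 9 measured microglia markers was higher, with a median of -0.32. The part of these tissues and of the immediate early genes in the Sult1a1, Sgk1 and Plin4 values was not tested. In pooled tissue fewer cells of a type and less RNA per cell cannot be told apart.

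Among the transgenic lines, 5xFAD differed by at least 2-fold from the mean of NCSTN and MAPT in 3 of the genes. Plin4 was 8.38 on the NCSTN, 8.10 on the MAPT and 10.79 on the 5xFAD array, a difference of 2.55 from the mean of the other 2 lines (5.84-fold). That size was larger than that of 99.4% of 15588 measured genes. Sgk1 was 11.63, 11.75 and 12.88 on the same arrays, a difference of 1.19 (2.28-fold). That size was larger than that of 93.7% of all genes and lay within the central 95% of them. The bright Hif3a probe was 7.64, 7.22 and 9.56, a difference of 2.13 (4.38-fold). A second Hif3a probe was well above background on the 5xFAD array alone of the 12, so its difference was not measured. The third was dim but well above background on all 3 transgenic arrays, and it went the other way, at 4.06, 4.21 and 3.42, a log2 difference of -0.72. The mean of the 3 probes, which takes in the probe below background, differed by 1.14 (2.21-fold). These 3 genes of the 10 were at least 2-fold higher on the 5xFAD array, against 5.45% of all genes, and 0 of the 10 were at least 2-fold lower, against 3.98%. Every one of the 3 was also the highest value of that gene on any hippocampal array, with 1 exception, since Sgk1 was 13.09 after scopolamine.

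The remaining 7 genes stayed under 2-fold. Fkbp5 was 11.51, 11.38 and 11.08 on the NCSTN, MAPT and 5xFAD arrays, lowest where Plin4 and Sgk1 were highest, a log2 difference of -0.37. Tsc22d3 was 12.25, 12.60 and 12.15, and Zbtb16 was 11.91, 12.25 and 12.25. The bright Cdkn1a probe was 8.65, 8.31 and 7.83, a log2 difference of -0.65. Sult1a1 and Pdk4 each differed by 0.37, well within the range of other genes. The 2 Nr3c1 probes differed by -0.996 and -0.0026, so that whether the receptor's transcript was lower in 5xFAD depended on the probe. The median of the 10 genes was 0.27, beside -0.063 over all genes, and the spread over all genes was 0.48, more than in any of the other 4 comparisons.

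Markers of microglia and astrocytes moved with the 5xFAD array. All 9 measured microglia markers were higher than on the mean of NCSTN and MAPT, 6 of them over 2-fold, with a median of 1.37, and their summed level was 16.78 against 14.68 and 14.63. Trem2, a microglial receptor, was higher by 3.24. Of 10 astrocyte markers 9 were higher, with a median of 0.33, less than the spread of 0.48 over all genes. Among them Gfap and the water channel Aqp4 were over 2-fold higher, by 1.80 and 1.19. Choroid plexus markers, at summed levels of 16.99, 17.09 and 16.77 on the NCSTN, MAPT and 5xFAD arrays, were higher on the 5xFAD array in 8 of 10 cases, with a median of 0.65 and 1 past 2-fold. Oligodendrocyte markers were higher on the 5xFAD array in 8 of 10 cases, with a median of 0.45. Endothelial markers were higher there in 1 of 10, with a median of -0.23, and markers of cortex in 0 of 8, with a median of -0.66. Markers of all these tissues, age, line and the array itself each differ between these pools. Their part in the Plin4, Sgk1 and Hif3a values was not tested.

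MAPT and NCSTN, the other 2 lines, differed less. None of the 10 genes reached 2-fold between them, against 1.62% of 15657 genes, and the differences ran from -0.42 for the bright Hif3a probe to 0.34 for Tsc22d3, with the bright Cdkn1a probe at -0.35. Zbtb16 was likewise higher on the MAPT array by 0.34. The median of the 10 was 0.089 and that of all genes was -0.024, with a spread of 0.19. Pituitary markers had a summed level of 12.52 on the MAPT array and of 8.91 to 9.64 on the other 11.

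In cortex, between the mean of 17 and 22 months and the mean of 1.5 and 4 months none of the 10 genes reached 2-fold, against 0.522% of 14748 genes, and their median difference was 0.0079, beside 0.015 over all genes with a spread of 0.20. Plin4 came nearest. It was 7.03, 6.60, 7.91 and 7.25 at 1.5, 4, 17 and 22 months, a difference of 0.76 (1.69-fold) that was larger in size than that of 98.3% of all genes. The oldest array was not the highest, and without it the difference was 1.09, past 2-fold, while without the 17-month array it was 0.43.

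The 17-month array set most of the pattern. By the mean of all probes it was the highest of the 4 ages for 6 of the genes (Fkbp5, Sgk1, Tsc22d3, Plin4, Sult1a1 and Hif3a), against 31.1% of all genes. Fkbp5 was 10.79 at 17 months and 10.27 to 10.38 at the other ages. Tsc22d3 was 12.47, 12.97, 13.04 and 12.42 in order of age, so that the youngest and the oldest were alike. Sgk1 spanned little, at 11.29, 11.61, 11.65 and 11.27. Sult1a1 was 10.68 and 10.94 at 1.5 and 17 months and 10.16 and 9.89 at 4 and 22 months. That alternation, with 1.5 and 17 months both above 4 and 22 months, held for 3 genes (Cdkn1a, Sult1a1 and Hif3a), against 13.6% of all genes. The bright Cdkn1a probe, at 10.52, 10.24, 11.02 and 10.15, had the same alternation.

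Pdk4 and Zbtb16 took neither course. Pdk4 was highest at 4 months, at 9.33 against 8.80 to 9.03, and Zbtb16 was lowest at 22 months, at 11.55 against 11.87 to 11.94. The mean of the Nr3c1 probes was higher at each later age, at 10.67, 10.74, 11.05 and 11.10, but the probes differed. The dimmer probe was 8.15 and 8.17 at 1.5 and 4 months and 9.10 and 8.98 at 17 and 22 months (1.84-fold), while the brighter probe was 13.18, 13.32, 13.00 and 13.23, a log2 difference of -0.14.

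**Figure D4:**
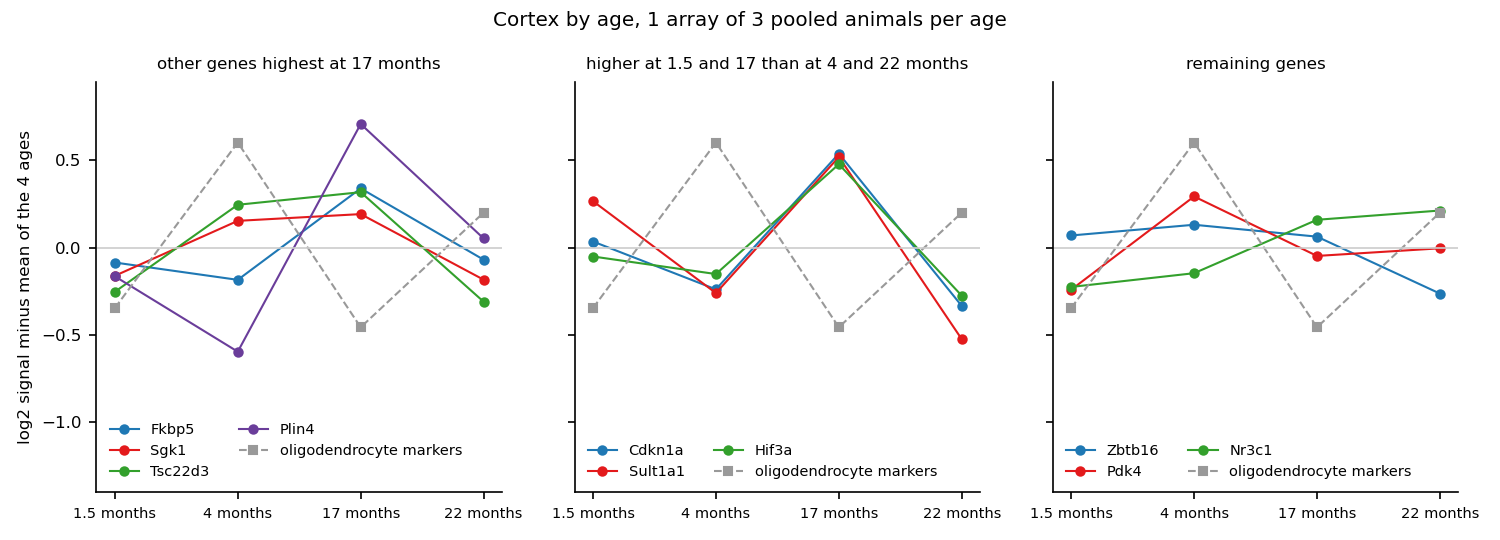
Log2 signal of each gene in prefrontal cortex at the 4 ages, minus the mean of that gene over the ages, from probes well above background on all 12 arrays, with the summed oligodendrocyte markers on the same scale as grey squares. Each point is 1 array of 3 pooled animals. On these probes 7 of the 10 genes peaked at 17 months, Sgk1 and Tsc22d3 by little, and the oligodendrocyte markers were lowest there. By the mean of all probes 6 genes peaked there, against 31.1% of all genes.

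Markers of several other cell types moved with the ages in cortex. The summed oligodendrocyte level was 16.34, 17.29, 16.23 and 16.89 at 1.5, 4, 17 and 22 months, low at the ages where Sult1a1 and Cdkn1a were high. Choroid plexus markers had a summed level of 15.64 at 17 months and of 8.99 to 9.39 at the other ages, and Ttr was 15.57 there against 5.11 to 6.85. The summed meninges and fibroblast level was 14.19, 13.48, 13.97 and 13.39 in order of age and the endothelial one 14.78, 14.53, 14.67 and 14.53, both with the alternation of Sult1a1, Cdkn1a and Hif3a. Whether the tissue taken at each age had a part in the levels of the glucocorticoid-responsive genes was not tested.

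A list of 30 further glucocorticoid targets gave no common direction. Over all measured genes, 49.2% were higher after scopolamine, 41.7% after Aβ, 44.6% on the 5xFAD array and 53.2% in old cortex, in the same comparisons. Between scopolamine and the 14-day arrays, 16 of 28 measured were higher and 12 lower, with a median of 0.03. Lcn2, an iron-binding lipocalin, was the only one past 2-fold, at 2.03-fold lower, against 1.47% of all genes in either direction. Between Aβ and streptozotocin, 12 of 28 were higher after Aβ. Lcn2 at 2.78-fold and the transglutaminase gene Tgm2 at 2.43-fold were past the threshold, against 3.06% of all genes in either direction. On the 5xFAD array 17 of 29 were higher than on the other transgenic arrays. Of the 29, 4 were past 2-fold higher, against 5.45% of all genes, and 3 were past 2-fold lower, against 3.98%. Those 4 were the metallothionein genes Mt2 (3.84-fold) and Mt1 (2.32-fold), Lcn2 (2.09-fold) and the transcription factor gene Cebpd (2.03-fold). The 3 were Ddit4, an inhibitor of the mTOR kinase (a log2 difference of -2.43), Dusp1, a phosphatase of MAP kinases (-1.66), and Rasd1, a small GTPase first found as dexamethasone-induced (-1.22). Ddit4 and Dusp1 thus lay opposite to Sgk1, Plin4 and Hif3a on the same array. MAPT and NCSTN differed by less than 2-fold in all 29 measured, where 1.62% of all genes reached it. In cortex, 19 of 28 were higher in the old pair, with Xdh, xanthine dehydrogenase, past 2-fold at 2.29-fold, against 0.522% of all genes in either direction. The clock gene and glucocorticoid target Per1 was 12.15 and 12.09 at 1.5 and 4 months against 13.00 and 13.08 at 17 and 22 months.

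Chaperones and receptors were listed next. Of 10 receptor chaperones, including Hsp90 genes and Fkbp4, 0 passed 2-fold in any of the 5 comparisons, and their medians ran from -0.31 on the 5xFAD array to 0.08 in old cortex. On the 5xFAD array 8 of the 10 were lower, Hspa1a by the most with a log2 difference of -0.95. Among 10 genes for other receptors and hormone handling, 9 were measured and Hsd11b2, which inactivates corticosterone, did not pass the background flag on any of the 12. The mineralocorticoid receptor gene Nr3c2 was 6.34 to 7.17 in cortex and 8.23 to 9.19 in hippocampus. Hsd11b1, which regenerates corticosterone from its inactive form, was 9.96 to 10.83 in cortex and 10.19 to 11.37 in hippocampus. Crhr2, a receptor for peptides of the corticotropin-releasing hormone family, was 9.64 and 9.89 after Aβ, 7.87 and 8.15 after streptozotocin and 10.16 after scopolamine, low like the choroid plexus markers on the streptozotocin arrays. Its difference was 1.75 between Aβ and streptozotocin and 1.27 between scopolamine and the 14-day arrays. The CRH-binding protein gene Crhbp was 2.28-fold lower on the 5xFAD array, and the vasopressin gene Avp was 2.20-fold higher on the MAPT than on the NCSTN array, where the pituitary markers also stood apart on the MAPT array. In cortex Avp was 4.94, 4.63, 6.77 and 5.59 at 1.5, 4, 17 and 22 months, highest on the 17-month array.

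The 10 genes did not vary as a block. With the mean of each strain-and-region group taken away, the highest Pearson r between 2 of them over the 12 arrays was 0.77, for Plin4 and Hif3a, both high on the 5xFAD array, and the lowest was -0.77, for Sgk1 and Nr3c1. These values used the mean of all probes of a gene, and so took in the dim Hif3a probes and the 2 Nr3c1 probes that disagreed. Fkbp5 and Sgk1 had an r of -0.44. The nearest 2 genes of 14010 compared were 2510039O18Rik (0.95) and Fscn1 (0.94) for Fkbp5, Tsr3 (0.98) and Cutal (0.94) for Sgk1, and Fam168a (0.96) and Selenoi (0.94) for Tsc22d3. They were Ralb (0.91) and Tdpoz8 (0.91) for Zbtb16, Ddb1 (0.96) and Dmpk (0.96) for Plin4, Zdhhc6 (0.94) and Cnn2 (0.92) for Sult1a1, and Zfp14 (0.94) and Esf1 (0.93) for Pdk4. For the genes whose probes disagreed or included dim ones, they were Umps (0.89) and Lrrc58 (0.87) for Cdkn1a, Rbm6 (0.98) and Lrp5 (0.95) for Hif3a, and Siah2 (0.94) and Ncbp3 (0.94) for Nr3c1. None of these was on the list of further glucocorticoid targets. With 2 genes per member taken from 14010 and a list of 30, overlap was unlikely in any case, and its absence tells nothing. Some of these genes themselves varied little, with a span of 0.18 on the log2 scale for Umps and for Selenoi. Others, such as Lrp5 and Dmpk, spanned more. The points share arrays and depend on a few of them, Plin4, Sgk1 and Hif3a above all on the 5xFAD array.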

How the data were processed

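The authors hybridised amplified RNA, pooled from 3 animals per model, to 1-colour Agilent mouse 44K arrays, and the deposited scanner files hold processed, median and local background intensity for 39429 probes, with flags. Their methods keep probes 1.4-fold over local background and quantile normalize; the deposited value table holds intensity on a linear scale after that step. Software versions and a genome build for these arrays are not given in the sources used here. For this report, outlier spots were dropped, the spots of a probe were averaged as log2 processed signal, and all probes were quantile normalized over 12 arrays without the filter, so that every listed gene stayed in. Accessions named 27508 probes (69.8%) through RefSeq, and probes of a gene were averaged. A gene was measured in a comparison where at least 1 probe was well above background on each of its arrays, and called at 2-fold. With 1 array per group there was no test, and precision is limited by the number of arrays. Named genes were all 10 members, up to 6 list genes with the largest difference past 2-fold in each comparison and the 2 genes most alike each member. Some further list genes past 2-fold on the 5xFAD array were named after their values were seen, but not Egr1, Nr4a1 and Npas4. Per1, Hspa1a, Nr3c2, Hsd11b1, Gfap, Aqp4, Trem2 and the sex, region and choroid plexus markers were also named after their values were seen. The members and lists were chosen with earlier results of these data known. Alternatives were a 75th percentile scaling, the filter, normalization within strain and region, normexp with an offset of 50, the deposited table, the brightest probe, all genes counted, a 1.5-fold threshold and leaving out arrays. The planned normexp used the mean signal, for which the median signal stood in. Calculations used Python 3.11.15, numpy 2.4.6, pandas 2.3.3 and, for normexp, R 4.3.3 with limma 3.58.1, and were tested on simulated data.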

Additional observations from a re-analysis of the deposited data

How the results depend on the processing

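No paired analysis was possible because each model had 1 array. The count of genes at least 2-fold different moved from 0 to 2 (scopolamine), 3 (Aβ against streptozotocin) and 1 (old against young cortex) at 1.5-fold. Leaving out arrays in turn gave counts of 0 to 1 for scopolamine, where Sgk1 passed without either Aβ array, and of 0 to 1 for cortex, where Plin4 passed without 22 months. The shares of all genes at 1.5-fold and without single arrays are not given beside these counts. The counts are therefore no result about the glucocorticoid-responsive genes. The medians depended on single arrays: the cortical one was 0.0079, -0.18 without 17 months and 0.33 without 22 months, and that of 5xFAD was 0.27, 0.11 without NCSTN and 0.41 without MAPT. The scopolamine median was -0.23, -0.14 without Aβ 5 µM, -0.12 without both streptozotocin arrays, -0.14 by the brightest probe and -0.095 after normexp. The median between Aβ and streptozotocin ran from -0.16 in the deposited table to 0.02 without streptozotocin 3 mg/kg. The 5xFAD count was 3, or 2 after normexp, where Hif3a differed by 0.62. Cdkn1a in old cortex was -0.32 by the mean of its probes and 0.20 by the brightest. The deposited table moved the median of all genes to -0.23 (scopolamine) and -0.21 (Aβ against streptozotocin), and there Cdkn1a turned from 0.20 to -0.24 and from 0.17 to -0.15, and Fkbp5 from 0.04 to -0.08 between Aβ and streptozotocin, while Sgk1, Plin4 and Sult1a1 kept their directions. The 1.4-fold filter kept 36520 of 39429 probes.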

Other observations

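Genes of other lists also differed on the 5xFAD array, where 5.45% of all genes were at least 2-fold higher and 3.98% at least 2-fold lower. Per1, among the clock genes, and Angptl4, among the fasting genes, were also on the list of further glucocorticoid targets. All 12 measured immediate early genes were lower than on the mean of the NCSTN and MAPT arrays, 7 of them past 2-fold, with a median of -1.59; Arc, which acts at active synapses, was 4.86-fold lower, Egr4 3.61-fold, Fos 3.56-fold and Ier2 3.41-fold. Among 16 clock genes, 8 were higher on the 5xFAD array, with a median of 0.08 and a lowest difference of -0.90. Per3 was 3.22-fold and Dbp 2.45-fold higher there, and none of the 16 passed 2-fold in the other 4 comparisons. Of 12 fasting and fatty acid genes, Ucp2, a mitochondrial carrier, was 3.82-fold higher on the 5xFAD array and was the only one past 2-fold in any comparison. Between Aβ and streptozotocin, 11 of the 12 were higher after Aβ, against 41.7% of all genes, with a median of 0.33. Pdk4 went the other way there, at -0.57. Of 9 hypoxia genes, Vegfa and Egln1 were each 2.17-fold lower on the 5xFAD array, opposite in direction to Hif3a. None of 11 measured p53 target genes passed 2-fold there, where the bright probe of Cdkn1a, itself a p53 target, had a log2 difference of -0.65.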
